A study of Rattus norvegicus with 9 samples.

Results

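Voltage-gated potassium channel alpha subunits, the pore-forming and pore-modifying proteins of the Kv, KCNQ and ether-à-go-go families, were followed across 9 libraries of messenger RNA from rat dorsal root ganglia. Their genes were taken by symbol (Kcna, Kcnb, Kcnc, Kcnd, Kcnf, Kcng, Kcnh, Kcnq, Kcns and Kcnv, each with a number). Among 30446 genes counted, 38 symbols matched, and 32 of these stood at 1 CPM (counts scaled to library size) or more in at least 3 libraries. The ganglia, which hold the cell bodies of sensory neurons and their glia, came from male Sprague-Dawley rats and covered both sides from T12 to L6. The 9 libraries formed groups of 3 labelled naïve, sham and SCI (spinal cord injury), all marked with day 30. The labels give no age, no further treatment and no injury level beyond that the ganglia lay below T11. They call the libraries biological replicates and do not say whether animals were pooled, so a p-value here speaks of variation among libraries.

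These channels open when the membrane depolarizes and let potassium leave the cell, which repolarizes action potentials and sets how readily a neuron fires. Each functional channel is a tetramer, so the subunits present decide its voltage range and speed. In sensory neurons, Kv1 channels act near threshold and along myelinated axons, Kv4 channels carry the rapidly inactivating A-type current, Kv2 channels carry slow delayed rectifier current, and KCNQ channels carry the M-current that holds back repetitive firing. The silent subunits (Kv5, Kv6, Kv8 and Kv9) form no channel alone and modify Kv2 channels. Peripheral nerve injury is known to lower several of these transcripts in the ganglion, and the series sets cord injury against sham and naïve animals.

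The matched genes below the level limit were Kcna7, Kcna10, Kcnh3, Kcnh4, Kcns2 and Kcnv2, and all 32 retained genes were among the 16627 tested after the low-count filter. Just inside the limit lay Kcnq1, at 1 CPM or more in 4 libraries (0.655 to 1.45 CPM over all 9). Just outside lay Kcnv2, which reached 1 CPM in 2. The other 31 reached it in all 9. The members' counts ran from 11 for Kcnq1 to 8884 for Kcnd1, and 26 members had at least 100 counts in every library. Since gene lengths were not used, levels are compared between groups for 1 gene and not between genes.

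Library totals ran from 16724878 to 32060538 counts, so 1 CPM rested on 16.8 to 32.3 counts. Over all genes, the first principal component (59.3% of the variance) set naïve libraries, at scores of -43.5 to -41.6, apart from the other 6, at 14.2 to 25.7. The labels name no batch, so the effect of sham treatment or injury and any batch that holds only the naïve libraries cannot be told apart. The sham libraries were the most spread: sham 1 had the highest sham level for 28 of the 32 channel genes and sham 3 the lowest for 27. The median coefficient of variation of the members was 17.2% in sham, 3.76% in naïve and 6.99% in SCI. The summed level of 12 sensory neuron markers moved the same way, at 27695, 22611 and 19792 CPM in sham 1, 2 and 3. It was 19406 to 20038 in naïve and 21299 to 22355 in SCI libraries, and no marker was at 0. A sum follows its highest genes most, and Nefl alone stood at 7961 ± 165 CPM in naïve, 9231 ± 2124 in sham and 8454 ± 248 in SCI. In sham 5 of the 12 were higher than in naïve and 1 lower (24.7% and 25.9% of all genes tested). In SCI 3 were higher and 1 lower (23.9% and 24.6%), each at an edgeR adjusted p under 0.05. Whether neuron content has a part in the channel values was not tested.

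**Figure D1:**
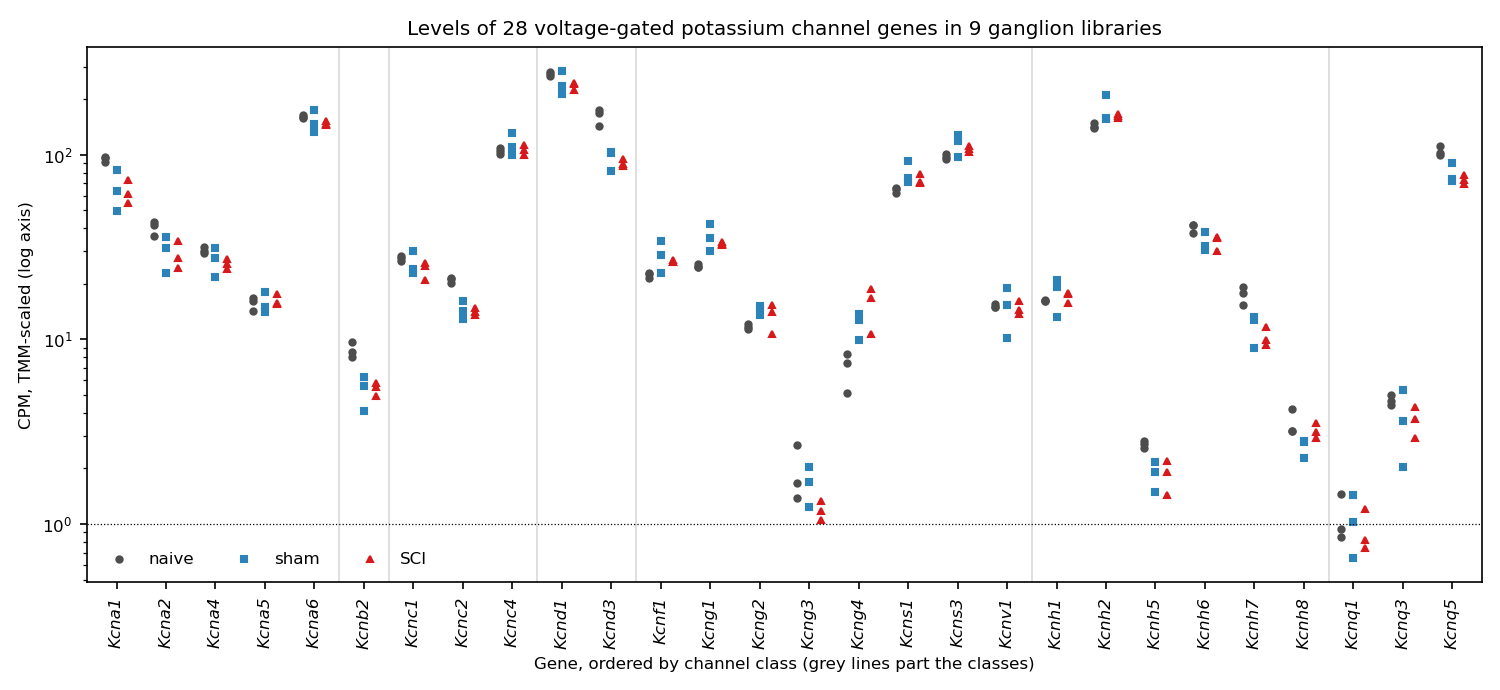
CPM (log axis) of 28 of the 32 channel genes in the 9 libraries, with points for naïve, squares for sham and triangles for SCI libraries. A dotted line marks the limit of 1 CPM, which Kcnq1 straddles. Kcnd3, Kcnb2, Kcnc2 and Kcnh7 show naïve points above all others, and Kcng4 and Kcng1 naïve points below all others.

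Channel genes differed between naïve ganglia and the other groups in both directions. The A-type subunit Kcnd3, the delayed rectifier Kcnb2, the Kv3 subunit Kcnc2, the axonal Kv1 subunits Kcna1 and Kcna2, the KCNQ subunit Kcnq5 and the ether-à-go-go members Kcnh5, Kcnh6 and Kcnh7 were lower in both sham and SCI. The silent subunits Kcng1 and Kcng4 were higher in both. In sham, 9 members were higher (24.7% of all genes tested) and 9 lower (25.9%) than in naïve at an edgeR quasi-likelihood adjusted p under 0.05, so that 18 of 32 (56.2%) differed against 50.6% of all genes tested. In SCI, 2 members were higher (23.9% of all genes tested) and 10 lower (24.6%), so that 12 of 32 (37.5%) differed against 48.5% of all genes tested. The totals lay near the background. By direction, 6.25% of the members were higher and 31.2% lower in SCI, and these shares depended on the libraries fitted.

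The libraries of sham and naïve did not overlap for 16 members (56.7% of all genes tested), 7 of them higher (27.5%) and 9 lower (29.2%). Those of SCI and naïve did not overlap for 24 (64.1% of all genes tested), 9 higher (32.2%) and 15 lower (31.9%). The median log2 change of the 32 members was -0.07 in sham and -0.14 in SCI against naïve, beside 0.00 and 0.01 over all genes tested. The number of calls in SCI depended on which libraries were fitted. Without sham 1, 20 members were called between SCI and naïve (54% of all genes tested), and 23 when only the SCI and naïve libraries were fitted (58.4%). The cause of this difference was not tested. Any difference among the 3 groups was called for 15 members (48.5% of all genes tested). Both comparisons use the same naïve libraries and are not independent of each other. In whole ganglia, fewer cells of a type and less RNA per cell cannot be told apart.

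**Figure D2:**
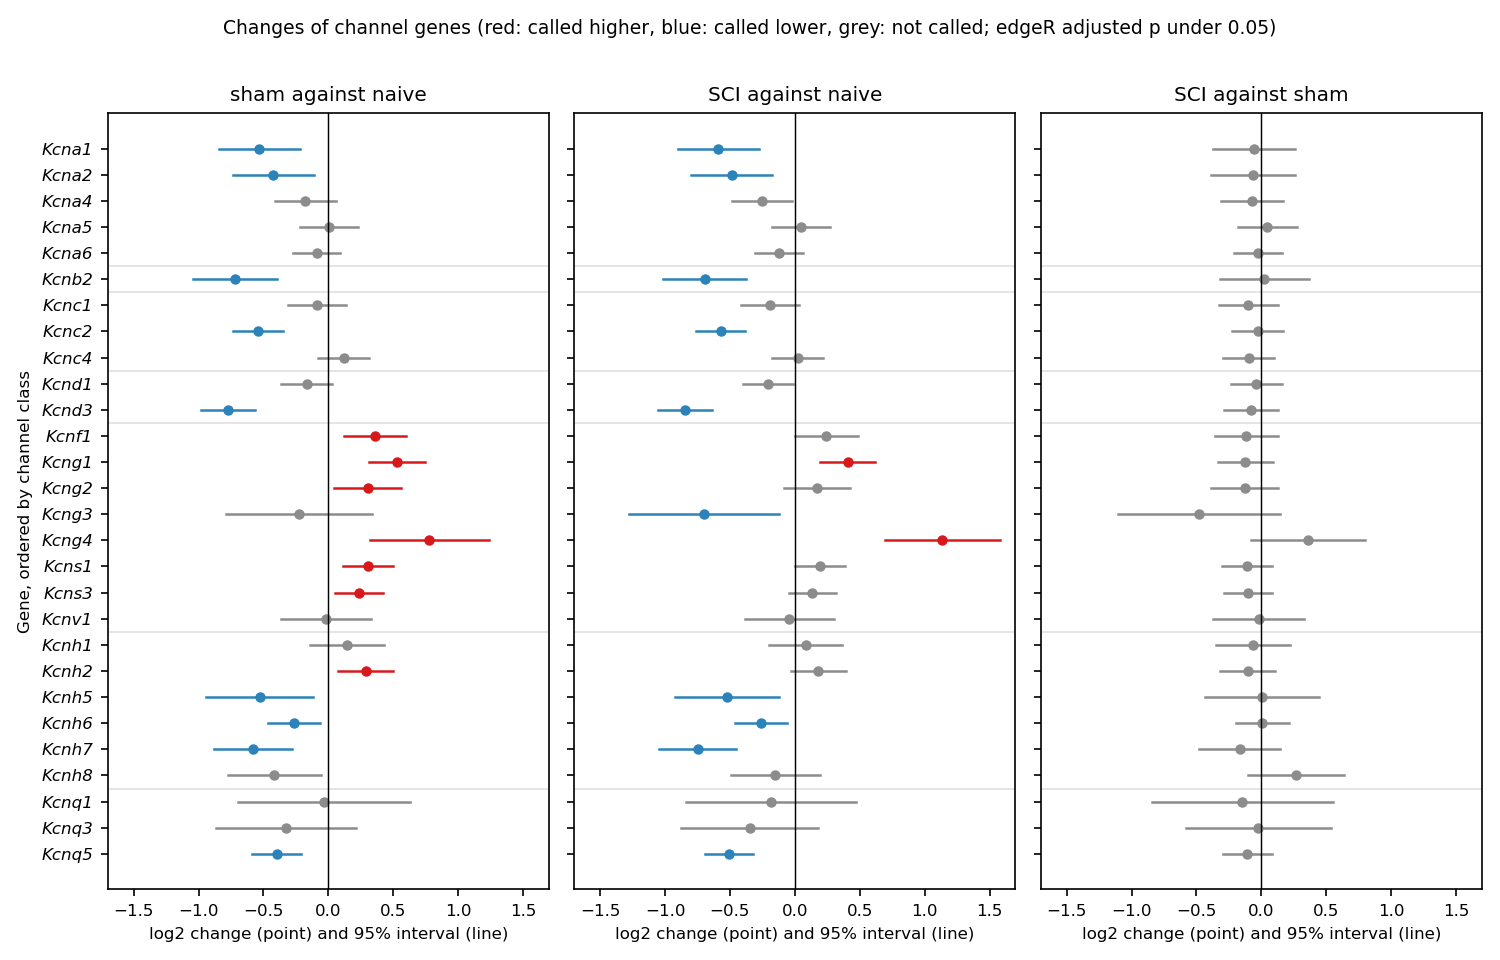
Log2 change (point) with its 95% interval (line) for 28 of the 32 channel genes in the comparisons sham against naïve, SCI against naïve and SCI against sham, coloured where edgeR's adjusted p was under 0.05. Coloured points lie on both sides of 0 in the first and second panels, from -0.85 for Kcnd3 to 1.14 for Kcng4 in SCI against naïve, and the third panel holds none.

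Promoter sequence was read for the 20 members with an entry in a RefSeq table of rat promoters (assembly GRCr8), as the 250 bases before the first listed start. The windows of 3 members are shown because they stand for both directions of change: Kcnd3 and Kcnq5 were lower and Kcng4 was higher in sham and SCI. They lie at chr2:195626066-195626315 on the plus strand, chr9:31891282-31891531 on the minus strand and chr19:64597889-64598138 on the minus strand. Each is written 5′ to 3′ along its gene, in lower case, with capitals for any match to the motifs searched on both strands.
Kcnd3: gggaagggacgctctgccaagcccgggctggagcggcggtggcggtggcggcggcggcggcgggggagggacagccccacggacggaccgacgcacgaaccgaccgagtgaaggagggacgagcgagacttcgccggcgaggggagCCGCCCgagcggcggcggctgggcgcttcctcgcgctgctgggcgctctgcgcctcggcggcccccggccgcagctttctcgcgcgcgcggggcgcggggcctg
Kcnq5: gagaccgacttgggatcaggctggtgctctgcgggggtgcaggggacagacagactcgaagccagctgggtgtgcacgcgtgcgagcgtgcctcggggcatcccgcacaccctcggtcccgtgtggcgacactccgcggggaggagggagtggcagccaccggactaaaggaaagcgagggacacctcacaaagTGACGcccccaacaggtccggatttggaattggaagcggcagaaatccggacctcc
Kcng4: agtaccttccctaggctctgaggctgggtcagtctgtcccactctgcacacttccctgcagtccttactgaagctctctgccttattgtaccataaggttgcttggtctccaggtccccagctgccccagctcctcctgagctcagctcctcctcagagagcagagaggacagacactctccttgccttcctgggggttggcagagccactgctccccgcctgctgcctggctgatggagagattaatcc
The capitals mark 1 GC box in Kcnd3 (GGGCGG, read here on the other strand as CCGCCC) and 1 core of the cAMP response element in Kcnq5 (TGACG). Kcng4 held no match.

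The 3 windows differed in CpG dinucleotides, with 43 in Kcnd3, 20 in Kcnq5 and 1 in Kcng4. Over the 20 members the median was 18, against 6 over all 27457 promoters. Member counts ranged from 1 (Kcna4 and Kcng4) to 43 (Kcnd3), and 39 were found in Kcng3 and 33 in Kcna2. The GC box stood in 13 of the 20 member promoters (65.0%) and in 32.4% of all promoters of this length. TGACG stood in 2 (10%), Kcnh8 and Kcnq5, against 19.0% of all. Neither a TATA box (TATAAA, 13.1% of all) nor an E box (CACGTG, 5.79% of all) was found in the 20 windows. A motif was counted whether or not it overlapped another, and a match describes letters only. The members were kept by their level in these ganglia, while all promoters were taken whatever the level of their gene. The sets are thus unlike, and promoters of other genes at such levels were not counted apart.

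Kcnd3 encodes Kv4.3, the A-type subunit of small sensory neurons. Its levels were 143, 175 and 169 CPM in the naïve libraries, 103, 102 and 81.3 in sham and 86.8, 94.7 and 89.5 in SCI. Every naïve library lay above every other library. The log2 change of Kcnd3 was -0.77 in sham (SE 0.10, edgeR adjusted p = 2.64e-05) and -0.85 in SCI (SE 0.10, edgeR adjusted p = 1.56e-05), so that its level fell by 41.4% and fell by 44.4%. Kcnd1, which encodes Kv4.1 and is the other of the 2 Kcnd members, was not called. It stood at 274 ± 5.99, 244 ± 35.6 and 237 ± 10.7 CPM (naïve, sham and SCI, mean ± SD, n = 3 each). The 6 markers of nonpeptidergic nociceptors, neurons known to carry Kv4.3, summed to 2393 to 2641 CPM in naïve, 1631 to 2175 in sham and 1734 to 1973 in SCI libraries. Of these markers 3 were lower and none higher in each comparison with naïve, and none was at 0. Their part in the Kcnd3 values was not tested.

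Among the Kv1 genes, Kcna1 and Kcna2, which encode the Kv1.1 and Kv1.2 subunits of juxtaparanodal channels beside the nodes of Ranvier, were lower in both groups. Kcna1 stood at 95.9, 97.3 and 90.9 CPM in naïve, 82.3, 64.0 and 49.7 in sham and 73.0, 61.1 and 54.5 in SCI. Its lowest naïve library lay above all 6 others, and the sham libraries spread more widely than the SCI libraries. The log2 change was -0.53 in sham (SE 0.14, edgeR adjusted p = 0.00749) and -0.59 in SCI (SE 0.14, edgeR adjusted p = 0.00425). Kcna2 stood at 41.7, 43.0 and 36.3 CPM in naïve, 35.7, 31.2 and 23.0 in sham and 34.1, 27.5 and 24.3 in SCI. The highest sham library lay close under the lowest naïve one, and no library of sham or SCI overlapped with naïve. For Kcna2 the log2 change was -0.42 in sham (SE 0.15, edgeR adjusted p = 0.0274) and -0.49 in SCI (SE 0.15, edgeR adjusted p = 0.0138). The Kcna2 call in sham was lost without naïve 1, naïve 2, sham 2 or sham 3 (edgeR adjusted p of 0.0617 to 0.0958). In SCI it was lost without naïve 2, SCI 2 or SCI 3 (0.0518 to 0.0719).

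Kcna4, Kcna5 and Kcna6 (Kv1.4, the inactivating subunit of small neurons, Kv1.5 and Kv1.6) were not called in any comparison. The mean level of Kcna6 was 161 ± 3.53 CPM in naïve, 151 ± 21.3 in sham and 148 ± 3.66 in SCI, and that of Kcna4 30.4 ± 1.11, 26.8 ± 4.86 and 25.6 ± 1.62. The 8 markers of myelinating Schwann cells, the cells that wrap the axons on which Kv1 channels sit, summed to 30114 to 31846 CPM in naïve, 17553 to 21920 in sham and 19009 to 23176 in SCI libraries. Of them 6 were lower and none higher in each comparison with naïve, and none was at 0. Their part in the Kv1 values was not tested.

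Kcnb2, which encodes the delayed rectifier subunit Kv2.2, was lower in both groups. Its levels were 8.0, 9.73 and 8.55 CPM in naïve, 6.25, 5.59 and 4.07 in sham and 5.50, 5.83 and 4.91 in SCI. No library of sham or SCI reached the naïve range. For Kcnb2 the log2 change was -0.72 in sham (SE 0.15, edgeR adjusted p = 0.00143) and -0.69 in SCI (SE 0.15, edgeR adjusted p = 0.00171).

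Within the Kv1 genes, ratios of counts, which do not depend on library scaling, were compared by an exact permutation test over the libraries, with p adjusted over 4 ratios. The ratio of Kcna4 to Kcna2 was 0.723 to 0.813 in naïve, 0.875 to 0.942 in sham and 0.704 to 1.05 in SCI (exact permutation adjusted p = 0.261, and 0.0143 without SCI 1, the lowest SCI library). That of Kcna1 to Kcna2 was 2.26 to 2.51 in naïve, 2.05 to 2.30 in sham and 2.14 to 2.24 in SCI (exact permutation adjusted p = 0.181). Neither ratio passed over all 9 libraries. The ratios were computed on counts and do not compare molecules.

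The silent subunits, which modify Kv2 channels, included the members with the highest increases over naïve. In sham, where 24.7% of all genes tested were higher and 25.9% lower, 6 of 8 were higher and none lower, with a median log2 change of 0.30, while 3 of the 24 conducting subunits were higher and 9 lower, with a median of -0.17. In SCI (23.9% of all genes tested higher and 24.6% lower), 2 of 8 silent subunits were higher and 1 lower, with a median of 0.18, while none of the 24 conducting subunits was higher and 9 were lower, with a median of -0.20. The difference between the 2 classes was not tested. Summed over the 8 genes, the silent subunits stood at 246, 249 and 240 CPM in naïve, 342, 299 and 264 in sham and 275, 296 and 283 in SCI, and every sham and SCI library lay above the naïve ones.

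Kcng4, which encodes Kv6.4, had the largest change of the 32 members in both comparisons with naïve. It stood at 5.1, 8.37 and 7.45 CPM in naïve, 9.92, 12.7 and 13.6 in sham and 16.8, 18.7 and 10.7 in SCI. No sham or SCI library fell into the naïve range, and SCI 3 lay among the sham libraries. Its log2 change was 0.78 in sham (SE 0.21, edgeR adjusted p = 0.00783) and 1.14 in SCI (SE 0.21, edgeR adjusted p = 0.000564), a 1.71-fold and a 2.2-fold higher level. Kcng1, which encodes Kv6.1, stood at 25.4, 24.8 and 24.6 CPM in naïve, 42.1, 35.6 and 30.0 in sham and 32.8, 33.8 and 32.6 in SCI. The naïve and SCI libraries were each close together and the sham libraries spread to both sides of SCI. For Kcng1 the log2 change was 0.53 in sham (SE 0.10, edgeR adjusted p = 0.000654) and 0.41 in SCI (SE 0.10, edgeR adjusted p = 0.00434).

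Kcns1, which encodes Kv9.1 of large myelinated sensory neurons, stood at 65.1, 65.9 and 61.7 CPM in naïve, 92.1, 70.9 and 74.5 in sham and 70.4, 78.6 and 71.2 in SCI. The 3 naïve libraries were the lowest. Its log2 change was 0.30 in sham (SE 0.09, edgeR adjusted p = 0.0122), a call lost without naïve 3 (0.0587). In SCI it was 0.19 (SE 0.09, edgeR adjusted p = 0.0937), which did not pass, and edgeR's adjusted p was 0.0179 without sham 1 and 0.00862 when only the SCI and naïve libraries were fitted. Kcnf1 (Kv5.1, 0.36, edgeR adjusted p = 0.0163), Kcng2 (Kv6.2, 0.30, 0.0470) and Kcns3 (Kv9.3, 0.24, 0.0338) were also higher in sham. Each of these calls was lost without some single library: Kcnf1 without naïve 1 or sham 1 (0.0568 and 0.0933), Kcng2 without any naïve library, sham 1, sham 2 or SCI 2 (0.0538 to 0.113), and Kcns3 without any naïve library, sham 1 or sham 2 (0.0607 to 0.140). The edgeR adjusted p was 0.0672 for Kcns3 when only the sham and naïve libraries were fitted, and 0.0529 for Kcng2 under a stricter low-count filter.

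Kcng3 (Kv6.3) went the other way in SCI, at 1.66, 2.68 and 1.38 CPM in naïve, 1.69, 2.02 and 1.24 in sham and 1.05, 1.33 and 1.18 in SCI. These levels rest on few counts and the highest SCI library lay just under the lowest naïve one. The log2 change was -0.70 (SE 0.27, edgeR adjusted p = 0.0440), a call lost without any of naïve 1, naïve 2, sham 2, SCI 1, SCI 2 or SCI 3 (0.0522 to 0.259). Kcnv1 (Kv8.1) was not called and stood at 15.2 ± 0.319, 14.8 ± 4.43 and 14.8 ± 1.2 CPM in naïve, sham and SCI. This call of Kcng3 was also lost in DESeq2 (adjusted p = 0.0566) and limma-voom (adjusted p = 0.0644). The higher calls in sham depended on scaling. With libraries scaled on the 12 sensory neuron markers, an alternative chosen after seeing the data that shifts the median of all genes by -0.19 in sham against naïve, 1 member (Kcng1) was called higher in sham in place of 9 and 13 lower in place of 9, with 37.4% of all genes called. Kcng4 was among the calls lost in sham (edgeR adjusted p = 0.0826). The same scaling gave 2 higher and 13 lower in SCI (31.7% of all genes), with a shift of all genes of -0.11.

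Of the Kv3 genes, whose fast channels repolarize short spikes, Kcnc2 was lower in both groups. It encodes Kv3.2 and stood at 21.1, 21.5 and 20.2 CPM in naïve, 14.3, 16.1 and 12.9 in sham and 14.0, 14.8 and 13.6 in SCI. The naïve libraries lay well above the other 6, which shared 1 range. Kcnc2 had a log2 change of -0.54 in sham (SE 0.09, edgeR adjusted p = 0.000220) and -0.57 in SCI (SE 0.09, edgeR adjusted p = 0.000160). Kcnc1 (Kv3.1) and Kcnc4 (Kv3.4, an inactivating subunit of nociceptors) did not pass in any comparison. Kcnc4 stood at 105 ± 3.72, 113 ± 16.1 and 106 ± 6.82 CPM and Kcnc1 at 27.4 ± 0.742, 25.6 ± 3.78 and 24 ± 2.56 CPM in naïve, sham and SCI.

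**Figure D3:**
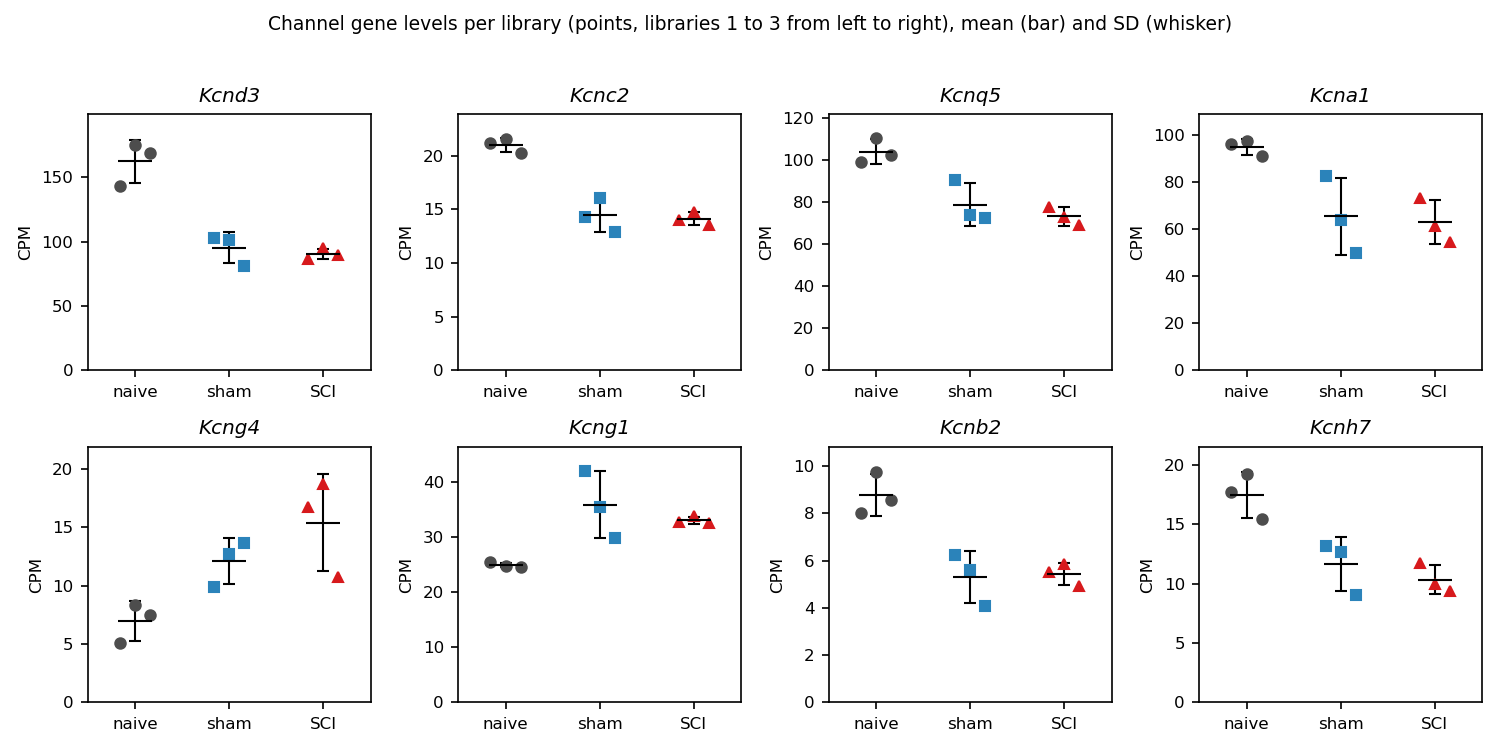
CPM per library (points, libraries 1 to 3 from left to right) with the mean (bar) and SD (whisker, n = 3) for 8 channel genes in naïve, sham and SCI. Kcnd3, Kcnc2, Kcnq5, Kcna1, Kcnb2 and Kcnh7 are highest in all naïve libraries, and Kcng4 and Kcng1 lowest there. Sham and SCI points overlap in each panel.

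The ether-à-go-go genes encode the Kv10, Kv11 and Kv12 channels, among them the erg channels (Kv11) that shape resting excitability. Kcnh7, which encodes Kv11.3, stood at 17.7, 19.2 and 15.4 CPM in naïve, 13.2, 12.7 and 9.03 in sham and 11.7, 9.94 and 9.37 in SCI. Every sham and SCI library lay below the naïve range. Its log2 change was -0.58 in sham (SE 0.14, edgeR adjusted p = 0.00345) and -0.75 in SCI (SE 0.14, edgeR adjusted p = 0.000646). Kcnh5 (Kv10.2) was lower by a log2 change of -0.53 in sham (edgeR adjusted p = 0.0331) and -0.52 in SCI (0.0321), from 2.70 ± 0.129 CPM in naïve to 1.85 ± 0.343 and 1.85 ± 0.385. Kcnh6 (Kv11.2) was lower by -0.27 in sham (edgeR adjusted p = 0.0293) and -0.26 in SCI (0.0326), from 40.4 ± 2.19 CPM to 33.5 ± 3.99 and 33.8 ± 3.08. Kcnh2, which encodes the erg1 channel Kv11.1, was higher in sham (log2 change 0.29, edgeR adjusted p = 0.0246), at 140 to 148 CPM in naïve, 156 to 209 in sham and 159 to 166 in SCI. No SCI library of Kcnh2 overlapped with naïve either, although the change in SCI did not pass, and a difference between the changes in sham and SCI was not called.

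The calls of Kcnh5, Kcnh6 and Kcnh2 were each lost without single libraries. For Kcnh5 in sham these were any naïve library, sham 2 or sham 3 (edgeR adjusted p of 0.0551 to 0.118), and in SCI any naïve library, SCI 2 or SCI 3 (0.0541 to 0.136). For Kcnh6 in sham these were naïve 2, naïve 3, sham 2 or sham 3 (0.0834 to 0.0990), and in SCI naïve 2, naïve 3, SCI 1 or SCI 2 (0.0503 to 0.154). For Kcnh2 these were naïve 1, naïve 3 or sham 1 (0.0746 to 0.0864). The call of Kcnh5 was also lost in DESeq2 in both comparisons (adjusted p = 0.0596 in sham and 0.0527 in SCI), and that of Kcnh2 when only the sham and naïve libraries were fitted (edgeR adjusted p = 0.0543). Kcnh1 (Kv10.1) and Kcnh8 (Kv12.1) were not called. Kcnh8 was at 3.18 to 4.19 CPM in naïve, 2.28 to 2.83 in sham and 2.94 to 3.51 in SCI.

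Among the KCNQ genes, Kcnq5, which encodes the M-channel subunit Kv7.5, was lower. It stood at 99.2, 111 and 103 CPM in naïve, 90.6, 74.0 and 72.4 in sham and 78.0, 72.9 and 69.0 in SCI. All sham and SCI libraries lay below the naïve ones, sham 1 nearest to them. Its log2 change was -0.40 in sham (SE 0.09, edgeR adjusted p = 0.00192) and -0.51 in SCI (SE 0.09, edgeR adjusted p = 0.000370).

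Kcnq3 (Kv7.3, an M-channel subunit) was not called and stood at 4.68 ± 0.305 CPM in naïve, 3.65 ± 1.63 in sham and 3.64 ± 0.696 in SCI. Kcnq1 (Kv7.1, the cardiac subunit) lay near the level limit and was not called.

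Leaving out each library in turn, the call was kept throughout by 9 of the 18 members called in sham, among them Kcnd3, Kcnb2, Kcnc2, Kcna1, Kcnh7, Kcnq5, Kcng1 and Kcng4. In SCI it was kept by 8 of 12 (Kcnd3, Kcnb2, Kcnc2, Kcna1, Kcnh7, Kcnq5, Kcng1 and Kcng4). The share of all called genes that keep their call in this way was not counted, so these counts have no background.

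Between SCI and sham, the comparison that sets cord injury against its control, no channel gene was called. Of the 32 members 0 passed, and of the 16627 genes tested 0 did (0% called). At an unadjusted p under 0.05 edgeR had 0 members and 3.16% of all genes (526), and DESeq2 and limma-voom called 0 members as well. The libraries did not overlap for 1 member, Kcnh8, which was higher in SCI, against 6.41% of all genes tested (3.3% higher and 3.11% lower). The median log2 change of the members was -0.07 and that of all genes 0.00, and 7 of 32 members had a positive change against 49.7% of all genes. The 95% interval of the change lay within 1.5-fold in either direction for 28 of 32 members and within 2-fold for 31.

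Among the 5 members with the smallest p in this comparison were Kcng4, Kcng3, Kcnh8 and Kcns1, each with an edgeR adjusted p of 1.0. Kcng4 had a log2 change of 0.36 (SE 0.20), with SCI 1 and SCI 2 above and SCI 3 within the sham libraries. Kcng3 had -0.48 (SE 0.29) and Kcnh8 0.26 (SE 0.17). Kcns1 had -0.11 (95% interval -0.31 to 0.08). Kcna2, at -0.06 (-0.39 to 0.26), did not pass either. Kcns1 and Kcna2 turned to 0.01 and 0.10 without sham 1, and Kcna2 to 0.04 without SCI 3.

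The small negative median moved with the sham libraries fitted. Without sham 1, which has the highest median channel level and the highest neuron marker sum, it was 0.05. Without sham 3, the lowest sham library in both, it was -0.18, and 13 members had an unadjusted p under 0.05 (13.8% of all genes tested) with 0 called (22 of all genes). Without either, the SCI libraries were set against sham 2 alone, an alternative chosen after seeing the data, and again 0 members were called. In that fit the lone sham library is assumed to vary like the other groups.

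**Figure D4:**
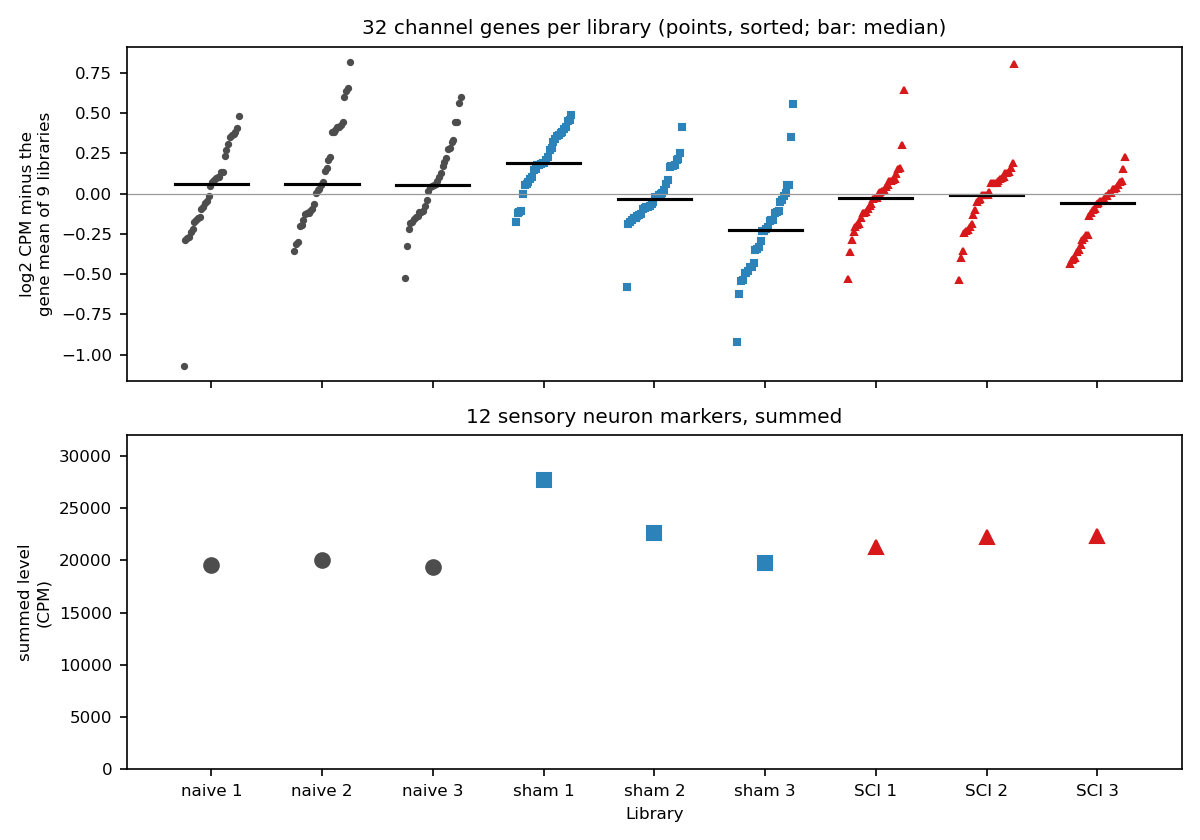
Upper panel: log2 CPM of each of the 32 channel genes minus its mean over the 9 libraries, sorted within each library, with a bar at the median. Lower panel: the summed level of 12 sensory neuron markers in CPM. Sham 1 has the highest median (0.19) and the highest marker sum, and sham 3 the lowest median (-0.23) and the lowest marker sum of the sham libraries.

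Genes that work with these channels were taken from 4 lists, none of which had a called gene between SCI and sham. Their counts against naïve stand beside 24.7% higher and 25.9% lower of all genes tested in sham, and 23.9% and 24.6% in SCI. Of 16 tested auxiliary subunits, 7 were higher and 3 lower in sham, and 6 were higher and 3 lower in SCI. Kcnip3, a calcium-binding partner of Kv4 channels also known as DREAM, was higher (log2 change 0.78 in sham, edgeR adjusted p = 4.96e-06, and 0.69 in SCI, 1.51e-05), from 107 ± 5.28 CPM in naïve to 184 ± 19.6 and 173 ± 3.63. Kcnab2, the Kv1 beta subunit that aids axonal targeting, was higher (0.50, edgeR adjusted p = 0.00106, and 0.46, 0.00228). Kcnab1, the beta subunit that speeds inactivation, was lower (-0.26, edgeR adjusted p = 0.0331, and -0.34, 0.00859). Dpp10, a Kv4 accessory subunit, was lower (-0.46, edgeR adjusted p = 0.00719, and -0.54, 0.00269). Lgi1, a secreted protein that binds Adam22 and acts on Kv1 channels, was lower (-0.49, edgeR adjusted p = 0.000156, and -0.51, 0.000140).

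Of 13 genes of the juxtaparanode and of channel clustering, 1 was higher and 5 lower in sham, and 1 higher and 4 lower in SCI. Ank3 encodes ankyrin-G, the scaffold that holds sodium and KCNQ channels at the axon initial segment and nodes. It was lower, from 289 ± 8.93 CPM in naïve to 152 ± 19.9 in sham and 162 ± 10.3 in SCI (log2 change -0.93, edgeR adjusted p = 3.25e-06, and -0.84, 8.25e-06). Adam22, the receptor of Lgi proteins at the juxtaparanode, was lower (-0.39, edgeR adjusted p = 0.0175, and -0.46, 0.00762). Dlg4, which encodes the scaffold PSD-95, was higher (0.72, edgeR adjusted p = 4.04e-06, and 0.67, 7.91e-06).

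Of 10 tested identifiers of regulators of Kv genes (Rcor1 has 2), 1 was higher and 6 lower in sham, and 1 higher and 5 lower in SCI. Rest, a repressor of neuronal genes that is known to act on Kcnd3, was lower, from 10.2 ± 0.508 CPM in naïve to 6.72 ± 0.415 in sham and 6.58 ± 1.11 in SCI (log2 change -0.60, edgeR adjusted p = 0.00140, and -0.62, 0.00118). Dnmt3a, a DNA methyltransferase known to silence Kcna2 after nerve injury, was lower, from 10.9 ± 0.289 to 7.04 ± 0.648 and 8.56 ± 0.492 (-0.63, edgeR adjusted p = 0.000225, and -0.35, 0.0100). Between SCI and sham its change was 0.28 (SE 0.11, edgeR adjusted p = 1.0). Ehmt2, the histone methyltransferase G9a, was higher, from 85.4 ± 4.48 to 116 ± 15.5 and 121 ± 8.61 (0.45, edgeR adjusted p = 0.00106, and 0.51, 0.000478).

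Of 13 genes of M-current modulation, 5 were higher and 5 lower in sham, and 4 higher and 5 lower in SCI. The M-current closes when Gq-coupled receptors deplete the membrane lipid that keeps KCNQ channels open. Plcb1, a phospholipase of that pathway, was lower (log2 change -0.94 in sham, edgeR adjusted p = 2.80e-05, and -0.89 in SCI, 4.55e-05). Prkca, a protein kinase C, was lower as well (-0.86, edgeR adjusted p = 5.77e-06, and -0.81, 1.09e-05). Gna11, a Gq-class G protein, was higher (0.63, edgeR adjusted p = 1.10e-05, and 0.61, 1.62e-05), and so was Calm3, a gene of calmodulin, which binds KCNQ subunits (0.72, edgeR adjusted p = 8.04e-06, and 0.59, 4.70e-05). Related genes of the list went the other way. Plcb3 was higher, unlike Plcb1 (0.30, edgeR adjusted p = 0.0108, and 0.28, 0.0169). Gnaq was lower, unlike Gna11 (-0.46, edgeR adjusted p = 0.00475, and -0.42, 0.00863). Calmodulin is encoded by 3 similar genes, and reads may be split between them.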

How the data were processed

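RNA of 9 ganglion libraries was measured. The authors deposited raw, unscaled counts per gene. The tools named in the submitters' processing notes are FastQC, Trimmomatic, TopHat2, HTSeq and DESeq2, with versions, build and annotation not given in the sources used here. Strand is not marked by the library kit per the labels' protocols (TruSeq V2), so reads of a gene and of an overlapping antisense gene cannot be told apart.

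Groups came from the treatment labels. The counts were tested with edgeR's quasi-likelihood test (version 4.0.16, R 4.3.3) over all 9 libraries with edgeR's default low-count filter, TMM scaling, 1 mean per group and Benjamini-Hochberg adjustment over all 16627 genes, with calls at an adjusted p under 0.05. CPM used TMM-scaled totals. Ratios of counts (1 added to each count) were compared by an exact permutation test over libraries of the spread between groups, in either direction. The edgeR test, and not the permutation test, was checked on simulated data, for SCI against sham. Alternatives were RLE scaling, a low-count filter that was stricter or absent, limma-voom (version 3.58.1), DESeq2 (version 1.42.0), a fit of just the 2 groups, a replicate block, leaving out each library and an adjusted p under 0.1, and 2 were added after seeing the data.

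The members, gene lists and tests were chosen with earlier results of these data known, so lists are described by counts and medians and not tested. Changes are named for called members, for the smallest p where fewer than 5 were called, and for Kcna2 and Kcns1 always. Some channel genes are not reported here. From the other lists, up to 3 called genes per direction, and Rest, Dnmt3a and Ehmt2, are named. Promoter windows came from a RefSeq table (GRCr8) and the other 12 members were not analysed there. Coordinates in the authors' build were not used here.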

Additional observations from a re-analysis of the deposited data

How the results depend on the processing

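No member was called between SCI and sham under any alternative run. With 1 library left out, 8 to 20 members were called in SCI against naïve, beside 39.8% to 54.5% of all genes. Of the members 2 to 7 were higher and 6 to 13 lower. In sham against naïve 11 to 20 were called, beside 43.2% to 51.2% of all genes. There 4 to 12 members were higher and 6 to 16 lower. Any difference was called for 8 to 20 members, and the share of all genes in those fits was not counted. The median change of the members ranged from -0.182 to 0.054 in SCI against sham, from -0.15 to -0.08 in SCI against naïve and from -0.247 to 0.0025 in sham against naïve, the first and last decided by sham 1 and sham 3. The difference in the log2 ratio of Kcna4 to Kcna2 between the other 6 libraries and naïve, 0.25 with all libraries, ranged from 0.21 to 0.32. With only the SCI and naïve libraries fitted, or without both sham 1 and sham 3 (added after seeing the data), 23 members were called between SCI and naïve, with 9 higher (58.4% and 56.9% of all genes called). Higher calls there were 4 with no low-count filter (33.7% of all genes called in either direction) and 6 at an adjusted p under 0.1. The share of all genes at that limit was not counted. Scaling on the 12 sensory neuron markers (added after seeing the data) shifted the median of all genes by -0.19 in sham against naïve, left 1 member higher and 13 lower, and gave a member median of -0.28. In SCI against naïve it shifted all genes by -0.11 and gave a member median of -0.25. Signs turned for changes that had not passed. For SCI against sham, Kcns1 was at 0.043 without both sham libraries and between -0.188 and 0.011 with 1 library left out, and Kcna2 was at 0.039 on neuron marker scaling and between -0.226 and 0.096 with 1 left out. The cause of these shifts was not tested.

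The same replicate numbers occur in every group and the labels do not pair them. Deviations of same-numbered libraries correlated between -0.0946 and 0.124. Those of differently numbered libraries from different groups correlated between -0.132 and 0.156. Whether libraries of the same number share more than that number was not tested. With the replicate block, 12 members were called in SCI against naïve, beside 47.2% of all genes. In sham against naïve 17 were called, beside 49% of all genes, and Kcng2 was lost (edgeR adjusted p = 0.0517).

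Counting error limits the 6 members with under 100 counts in some library, among them Kcnq1 and Kcng3.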

Other observations

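The other cell markers of the ganglion gave values that enter no comparison of channel genes above. Of all genes tested, 24.7% were higher and 25.9% lower in sham than in naïve, and 23.9% and 24.6% in SCI. The 8 satellite glia markers summed to 5169 to 5241 CPM in naïve, 7681 to 10028 in sham and 7691 to 8851 in SCI libraries. Of these markers 4 were higher and 3 lower in sham than in naïve, and 4 higher and 2 lower in SCI. The 8 macrophage markers summed to 141 to 165 CPM in naïve, 160 to 257 in sham and 195 to 204 in SCI. Of them 4 were higher and 2 lower in each comparison with naïve. The 5 tested endothelium markers summed to means of 158 CPM in each group, with 1 higher and 2 lower in each comparison with naïve. The 8 tested skeletal muscle markers summed to 63.0 to 96.4 CPM in naïve, 132 to 145 in sham and 64.3 to 95.1 in SCI. Against naïve, 7 were higher and none lower in sham, and none was higher and 1 lower in SCI. Between SCI and sham none was called, and all 8 had a negative change (median log2 change -0.94), while 49.7% of all genes had a positive one. The 8 markers of large A-fibre neurons summed to 14148 to 15120 CPM in naïve, 13764 to 20821 in sham and 15280 to 16046 in SCI. They went both ways: 2 were higher and 3 lower in sham than in naïve, and 2 higher and 1 lower in SCI. The 8 markers of smooth muscle and pericytes summed to 216 to 229 CPM in naïve, 261 to 361 in sham and 276 to 296 in SCI. Against naïve, 7 of them were higher in sham and 5 in SCI, and none was lower. The T cell markers summed to 0.976 to 2.73 CPM over all libraries.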
